A study of Mus musculus with 16 samples.

Results

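Interferon response genes were examined as a set of 39 genes, among 16593 named genes on the arrays, in cultured mouse bone marrow progenitors with and without a leukemia oncogene. The set was listed by gene name, with no cut-off on measured values, but earlier results of these data were known. Where several probes read a gene, the brightest on average across all 16 arrays stood for it. A probe named for the gene was found for 38 of the 39, and Ifi44 was not analysed here. For 33 genes the probe was detected on at least 4 arrays (detection p under 0.05) and could be tested; those of Ifih1, Ifit1, Mx1, Iigp1 and Xaf1 were too dim. The 39 genes comprised 64 probes, of which 50 were tested.

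The cells came from the marrow of 8-week-old Booreana mice and wild-type C57Bl/6 mice of matching age. Booreana mice carry a mutation in Myb, the gene of the transcription factor c-Myb; the labels give only the strain name. Marrow enriched for c-Kit with CD117 beads was transduced with an MSCV retrovirus carrying GFP alone (control vector) or with AML1-ETO9a and GFP, and grown in IL-3, IL-6 and stem cell factor. After 48 hours the cells positive for GFP and c-Kit were sorted, so every group, controls included, had met a retrovirus and the same cytokines. The oncogene AML1-ETO9a encodes an alternatively spliced, truncated version of the RUNX1 and RUNX1T1 fusion found in acute myeloid leukemia, and the study's title concerns the binding of c-Myb to the coactivator p300 in leukemia caused by human oncogenes. The 2 genotypes and 2 vectors made 4 groups of 4 arrays each. The labels name 4 Booreana mice and do not say whether each array holds a separate animal, so the p-values rest on spread among arrays that may be technical. No probe was named for Kit; the progenitor genes Cd34, Gata2 and Meis1 were detected on all 16 arrays.

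Type I interferons bind the receptor pair IFNAR1 and IFNAR2 and act through the kinases JAK1 and TYK2. A complex that includes STAT2 and IRF9 then binds interferon-stimulated response elements, and interferon gamma acts at gamma-activated sites. The genes so induced block viral replication, sense viral RNA, load peptides on MHC class I and feed back on the pathway. In bone marrow, interferons are also known to drive resting blood stem cells into division.

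Promoters are shown for Isg15, Rsad2, Ifit3 and Gbp2, which varied together between arrays, and for Irf5, which changed between groups; the 5 were chosen after their values were seen. The pattern searched was the core of an interferon-stimulated response element, GAAA followed after any 2 bases by GAAA, on both strands of the 300 bases from 250 before to 50 after each RefSeq start site (build GRCm38.p6). Each line gives the 250 bases before the start, 5′ to 3′ on the gene's strand, with matches in capitals (on the other strand the pattern reads TTTC, 2 bases, TTTC).
Isg15: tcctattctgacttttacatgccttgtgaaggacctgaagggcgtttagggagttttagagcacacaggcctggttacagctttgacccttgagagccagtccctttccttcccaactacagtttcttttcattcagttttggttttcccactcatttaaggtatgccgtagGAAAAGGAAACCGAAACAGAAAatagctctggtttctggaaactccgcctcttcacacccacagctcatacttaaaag
Rsad2: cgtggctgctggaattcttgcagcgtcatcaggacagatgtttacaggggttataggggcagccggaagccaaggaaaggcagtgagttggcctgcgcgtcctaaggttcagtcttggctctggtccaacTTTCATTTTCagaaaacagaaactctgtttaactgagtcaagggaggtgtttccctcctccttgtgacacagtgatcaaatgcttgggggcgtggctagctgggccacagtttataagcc
Ifit3: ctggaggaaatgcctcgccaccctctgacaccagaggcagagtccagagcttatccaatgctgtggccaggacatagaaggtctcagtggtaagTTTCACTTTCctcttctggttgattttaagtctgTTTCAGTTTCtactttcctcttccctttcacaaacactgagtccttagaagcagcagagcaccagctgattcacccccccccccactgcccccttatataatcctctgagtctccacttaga
Gbp2: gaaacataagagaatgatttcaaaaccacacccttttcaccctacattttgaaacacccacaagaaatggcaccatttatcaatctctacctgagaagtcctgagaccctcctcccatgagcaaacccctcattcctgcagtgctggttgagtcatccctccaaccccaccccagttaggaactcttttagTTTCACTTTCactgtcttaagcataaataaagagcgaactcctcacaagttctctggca
Irf5: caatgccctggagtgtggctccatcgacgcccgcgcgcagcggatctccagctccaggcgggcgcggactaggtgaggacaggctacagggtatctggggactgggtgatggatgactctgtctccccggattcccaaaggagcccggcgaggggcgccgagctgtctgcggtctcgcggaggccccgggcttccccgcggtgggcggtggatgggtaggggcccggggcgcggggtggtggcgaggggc
Isg15 lies on the minus strand at chr4:156200819-156201068 and holds 3 overlapping matches, starting 66 to 78 bases before the start site. Rsad2 lies on the minus strand at chr12:26456453-26456702 with 1 match, and Ifit3 on the plus strand at chr19:34583279-34583528 with 2. Gbp2, on the plus strand at chr3:142620413-142620662, has 1 match at 59 bases, and Irf5, on the plus strand at chr6:29526375-29526624, has 0.

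Arrays held 10158 to 12002 detected probes. Booreana control replicate 2 stood apart, with the lowest count; its correlation with the rest averaged 0.845, against 0.931 to 0.955 for the other arrays. It stayed in every comparison, and no call of an interferon response gene was lost without it. All expression values below are normalized log2 intensities, and levels of different probes are not compared. The arrays read RNA from whole sorted samples, so fewer cells with a transcript and less transcript per cell cannot be told apart.

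Irf5 was the only one of the 33 tested genes to pass the test in any of the 5 comparisons. IRF5 is a transcription factor activated downstream of Toll-like receptors, and in macrophages it drives inflammatory cytokine genes. On the 4 wild-type control arrays its probe read 9.15, 9.47, 9.09 and 9.07, and on the wild-type AML1-ETO9a arrays 10.16, 10.53, 10.80 and 10.37. In Booreana cells it read 9.97, 10.34, 9.999 and 11.13 with the control vector and 9.95, 10.92, 10.86 and 11.09 with AML1-ETO9a. All 4 wild-type control arrays lay below all 12 others, and the other groups overlapped one another.

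In wild-type cells Irf5 rose 2.41-fold with AML1-ETO9a (log2 difference 1.27 ± 0.28, standard error of the fit, limma adjusted p = 0.0145, n = 4 arrays a group). It was the 1 member called of 33, where 4.32% of all 12760 tested probes were called (2.47% higher), and the 1 member whose 4 arrays against 4 did not overlap, as for 11.3% of all probes. With the control vector, Irf5 was 2.24-fold higher in Booreana than in wild-type cells (1.17 ± 0.28, limma adjusted p = 0.0182). Again it was 1 of 33 called, against 6.34% of all probes (3.77% higher). Both comparisons share the wild-type control arrays. With AML1-ETO9a the Booreana and wild-type groups differed by 0.24 ± 0.28 (adjusted p = 0.913), and within Booreana cells AML1-ETO9a minus control was 0.34 ± 0.28 (adjusted p = 0.65). The test of the difference between the 2 responses gave -0.93 ± 0.40 (adjusted p = 0.686), so the response was not shown to differ between the genotypes.

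The Irf5 calls were close to the threshold, with adjusted p over all alternatives from 0.00136 to 0.1497 in wild-type cells and from 0.00725 to 0.0687 between the control groups. In wild-type cells the adjusted p became 0.0571 without AML1-ETO9a replicate 3 and 0.0509 without control replicate 3. The call between the control groups ended without Booreana control replicate 4 (0.0520) or without wild-type control replicate 3 (0.0582) or 4 (0.0514).

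Adgre1, which encodes a macrophage surface receptor, also rose in both comparisons in which Irf5 was called, by 1.66 ± 0.17 in wild-type cells with AML1-ETO9a and by 1.33 ± 0.17 in Booreana against wild-type control cells. It rose with AML1-ETO9a in Booreana cells too (0.86 ± 0.17, limma adjusted p = 0.0183), where Irf5 did not pass. That Adgre1 call ended in 7 of 35 alternatives. Among them were no normalization between arrays (limma adjusted p = 0.144) and leaving out AML1-ETO9a replicate 1 (0.0622) or 4 (0.0582). Leaving out both Booreana arrays of any number ended it too (0.0546 to 0.115). Of the 11 monocyte and macrophage markers 5 were tested, and 3 of the 5 (Adgre1, Cd14 and Mrc1) rose with AML1-ETO9a in wild-type cells. Of all tested probes 49.4% were above 0 there, and limma called 2.47% higher. The summed linear intensity of the 5 lay between 17158 and 25932 on wild-type control and between 32183 and 49721 on wild-type AML1-ETO9a arrays. On Booreana control arrays, where Irf5 was higher, that sum was 4826 to 20383, and on Booreana AML1-ETO9a arrays 21361 to 47045. The marker Ccr2 was detected on 0 of 16 arrays, and no probe was named for Csf1r, Ly6c2 or Cd68. The part of such cells in the Irf5 difference was not tested.

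**Figure D1:**
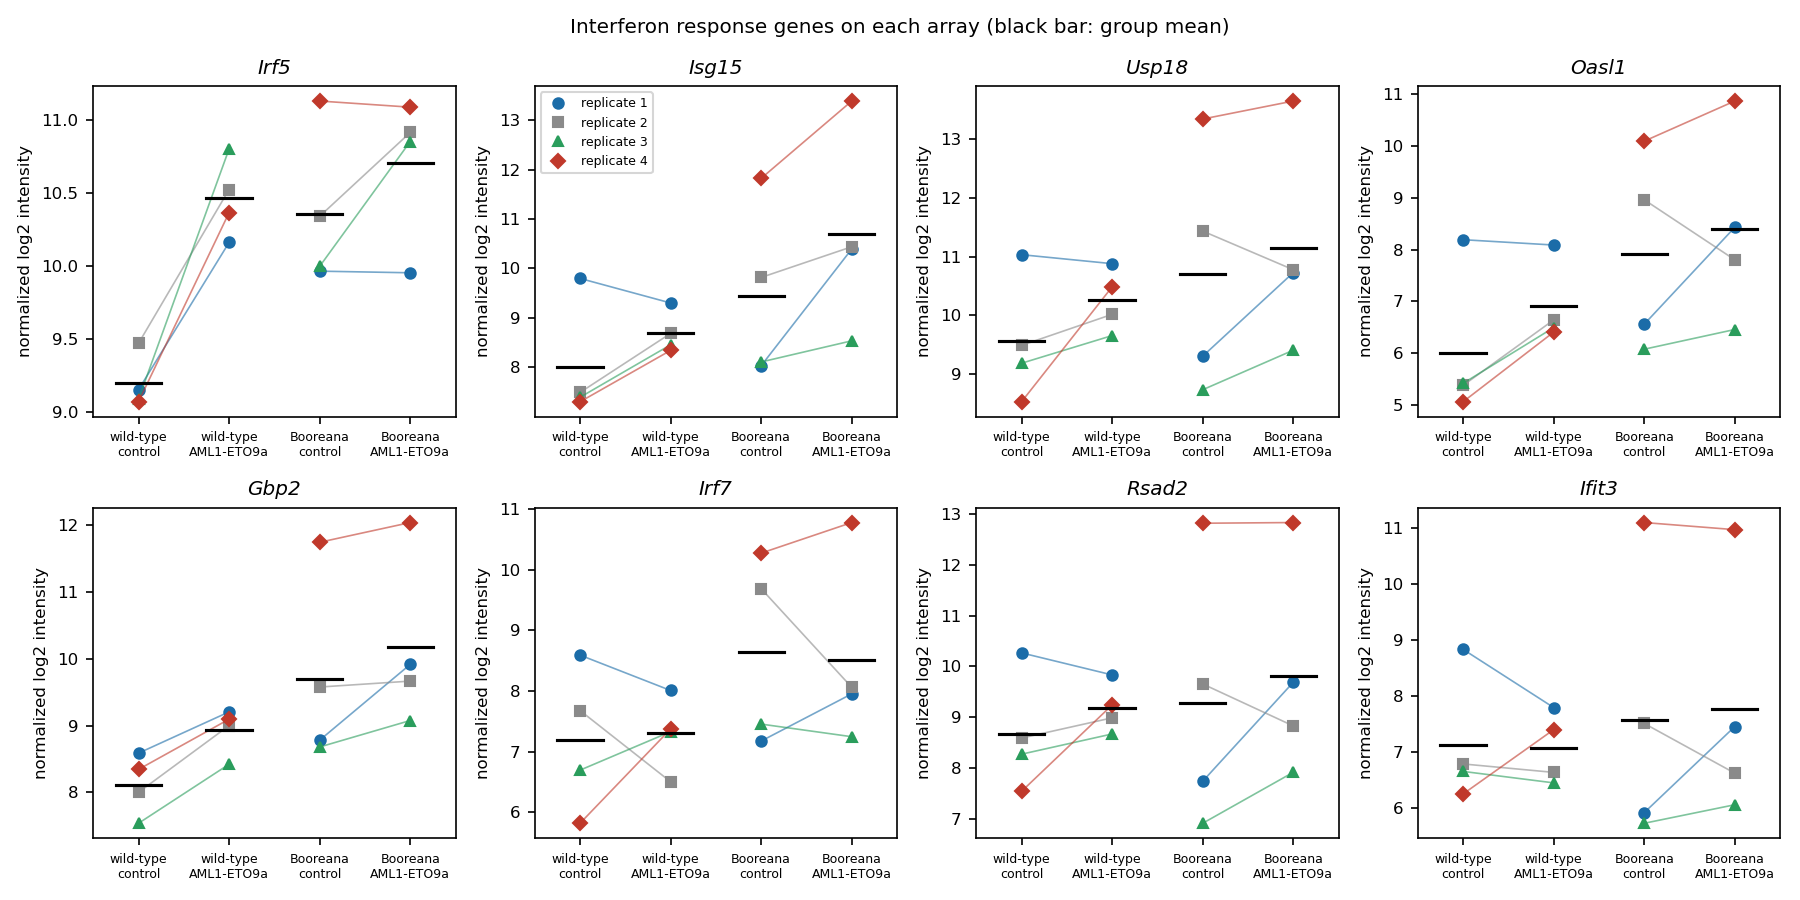
Normalized log2 intensity of 8 interferon response genes on each of 16 arrays, by group; symbols mark the replicate number, thin lines join equal numbers within a genotype, and black bars are group means (n = 4). Irf5 is low on all 4 wild-type control arrays, whereas Isg15, Usp18, Rsad2 and Ifit3 are highest on replicate 4 of both Booreana groups and on replicate 1 of both wild-type groups.

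The other 7 tested transcription factors did not pass in any comparison. Irf3, the factor that starts interferon beta transcription, was bright and nearly level on its brightest probe, between 11.58 and 12.48 over all arrays. Its Booreana AML1-ETO9a arrays all lay below the Booreana control arrays (1 of 33 members without overlap, against 6.58% of all probes), at 12.07, 11.58, 11.76 and 11.84 against 12.35, 12.48, 12.20 and 12.08 (-0.46 ± 0.16, limma adjusted p = 0.187). In the authors' processed values this difference was -0.45 with an adjusted p of 0.0461, and over all alternatives the adjusted p ran from 0.0461 to 0.603. Its 2 dimmer probes did not follow the bright one (correlations -0.55 and -0.28). Irf9, a DNA-binding partner of STAT2, was at 0.66 ± 0.27 in the same comparison (adjusted p = 0.328). With AML1-ETO9a, Irf9 was also at 0.64 ± 0.27 in Booreana against wild-type cells (adjusted p = 0.347), and there its groups did not overlap, as for 9.26% of all probes.

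Irf7, which amplifies interferon alpha production, varied far more within groups. It read 8.59, 7.68, 6.69 and 5.82 on wild-type control arrays and 8.01, 6.50, 7.33 and 7.37 with AML1-ETO9a. The Booreana control arrays read 7.17, 9.69, 7.45 and 10.27, and those with AML1-ETO9a 7.95, 8.06, 7.25 and 10.78. Each pair of groups overlapped, and between the control groups Booreana cells were higher by 1.45 ± 0.81 (adjusted p = 0.412). For Irf1, an activator, Irf2, which opposes it, Irf8, a factor of monocyte and dendritic cell development, and Stat2, differences in the 4 group comparisons ran from -0.25 to 0.47.

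Over the whole set most members had values above 0 in the 4 group comparisons, but few passed even without adjustment. Leaving out single arrays changed the counts and medians. With AML1-ETO9a in wild-type cells 26 of 33 members were above 0 (median 0.23, against -0.00 over all probes), and 1 had an unadjusted p under 0.05 (13.4% of all probes). Without control replicate 1 the median was 0.50. Without both wild-type arrays of a replicate number, 23 to 29 were above 0 (medians 0.16 to 0.34). In Booreana cells 27 were above 0 (median 0.29, against -0.03), but without AML1-ETO9a replicate 4 it was 11 of 33, with a median of -0.17. The count was 20 (median 0.06) without control replicate 1 and 17 (median 0.02) without control replicate 3. Without AML1-ETO9a replicate 1, 2 or 3 or control replicate 4 the median was 0.48, 0.46, 0.55 and 0.77. Without both Booreana arrays of a replicate number, 23 to 30 were above 0 (medians 0.19 to 0.40), and for number 4 it was 24 (median 0.34). With all arrays limma called 0 of 33 in Booreana cells, with 1.65% of all probes called. Unadjusted, 2 were under 0.05, Irf9 higher and Irf3 lower, against 12.3% of all probes. Members do not vary independently of each other, so these counts are not separate evidence.

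Booreana cells had higher values than wild-type cells for 28 of 33 members with the control vector (median 0.47, against 0.01 over all probes) and for 29 with AML1-ETO9a (median 0.48, against -0.03). Without Booreana control replicate 4 the 28 became 22 (median 0.24), and without Booreana control replicate 3 the median was 0.79. Without Booreana AML1-ETO9a replicate 4 the 29 became 18 (median 0.08), and without its replicate 3 the median was 0.73. With the control vector 2 members were under 0.05 unadjusted, Irf5 and Gbp2, against 16.9% of all probes. These 2 were also the members without overlap between the groups, as were 11.1% of all probes. With AML1-ETO9a limma called 0 of 33, with 3.74% of all probes called. Unadjusted, Irf9, Samhd1 and Isg15 were under 0.05 there, 3 members against 11.6% of all probes. For the difference between the 2 responses limma called 0 of 33, with 0.0862% of all probes called. Irf5 was the 1 member under 0.05 unadjusted, against 6.65% of all probes.

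The intervals were wide. In each of the 4 group comparisons the 95% interval of the log2 difference spanned over 2 units for 17 of 33 members. In wild-type cells with AML1-ETO9a it held a doubling (a log2 difference of 1) for 23 of the 33. A p that misses the threshold therefore does not show that these genes were level.

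**Figure D2:**
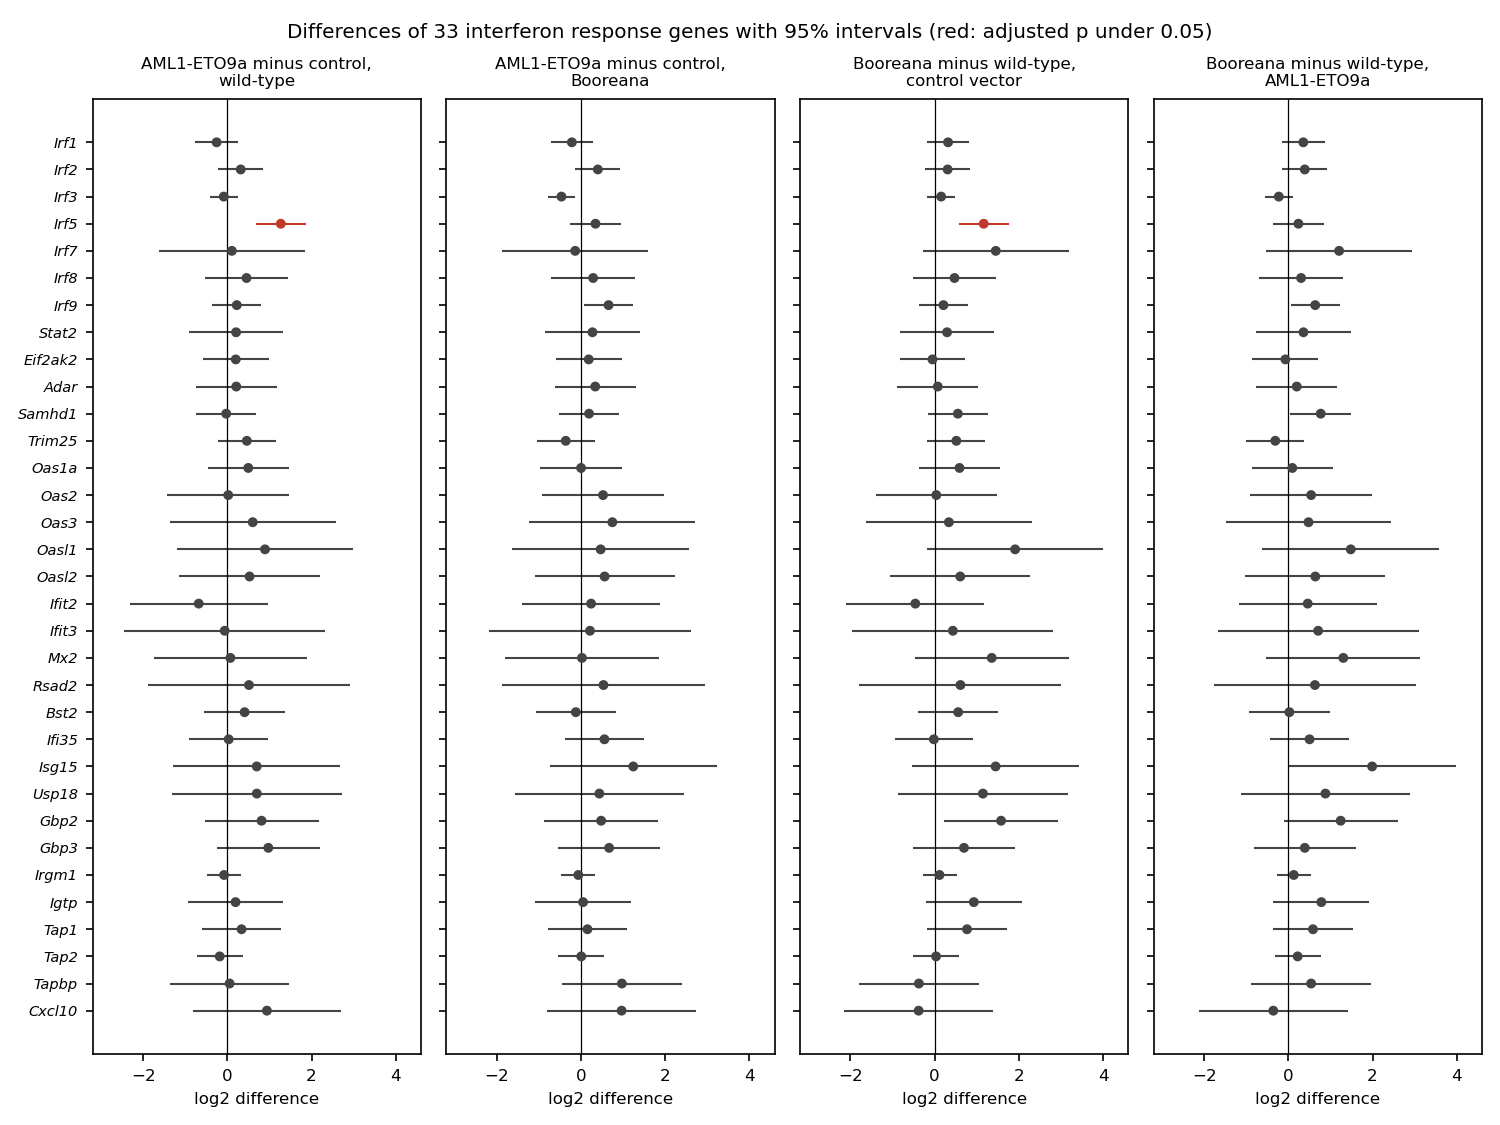
Log2 differences of the 33 tested genes (points) with 95% intervals (lines) from limma, in the 4 group comparisons; red marks an adjusted p under 0.05. Only Irf5 is red, in 2 panels, and the intervals of Rsad2 and Ifit3 span over 4 log2 units.

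Most of the variation in the set lay between arrays of one group. Isg15, a ubiquitin-like protein attached to viral and cellular proteins, read 9.80, 7.49, 7.40 and 7.31 on wild-type control arrays and 9.30, 8.69, 8.46 and 8.34 with AML1-ETO9a. In Booreana cells it read 8.04, 9.82, 8.11 and 11.82 with the control vector and 10.39, 10.44, 8.54 and 13.38 with AML1-ETO9a. Replicate 1 was the highest in both wild-type groups and replicate 4 in both Booreana groups, and every pair of groups overlapped. The group means were 8.00 (control) and 8.70 (AML1-ETO9a) in wild-type cells and 9.45 and 10.69 in Booreana cells.

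Usp18, the protease that removes ISG15 and restrains the receptor, followed the same arrays. Wild-type arrays read 11.04, 9.49, 9.19 and 8.53 with the control vector and 10.88, 10.02, 9.66 and 10.49 with AML1-ETO9a. For Booreana cells the values were 9.31, 11.44, 8.74 and 13.35, and 10.73, 10.78, 9.41 and 13.65. All pairs of groups overlapped, and within Booreana control cells replicate 4 was 24.5-fold above replicate 3. A second probe of Usp18 varied with it (correlation 0.98 over 16 arrays), while another, dimmer probe followed less closely (0.64).

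Among the RNA sensors, Oasl1 of the 2′-5′-oligoadenylate synthetase family, a translational inhibitor of Irf7 in mice, read 8.19, 5.38, 5.42 and 5.06 on wild-type control arrays and was detected on 1 of them. The wild-type AML1-ETO9a arrays read 8.09, 6.64, 6.49 and 6.41. Booreana arrays read 6.56, 8.96, 6.08 and 10.10 with the control vector and 8.43, 7.80, 6.46 and 10.87 with AML1-ETO9a. Replicate 1 stood alone at the top of both wild-type groups, and the 1.91 ± 0.99 between the control groups (adjusted p = 0.357) was smaller than the 4.02 between Booreana control replicates 4 and 3.

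Gbp2, a guanylate-binding protein that attacks the vacuoles of intracellular microbes, was the other member whose control groups did not overlap. It read 8.59, 8.00, 7.54 and 8.34 in wild-type control cells and 9.21, 9.001, 8.42 and 9.10 with AML1-ETO9a. Booreana cells read 8.78, 9.58, 8.68 and 11.74 with the control vector and 9.92, 9.67, 9.08 and 12.04 with AML1-ETO9a. All Booreana control arrays were above all wild-type control arrays, by a mean of 1.58 ± 0.64 (limma adjusted p = 0.198).

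Arrays with the same replicate number within a genotype deviated together over all probes, though wild-type replicate 3 only weakly (correlation 0.17). AML1-ETO9a and control were therefore also compared within these pairs, an analysis chosen after seeing the data. Gbp2 was then higher with AML1-ETO9a in all 4 wild-type pairs, by 0.62, 1.00, 0.88 and 0.75. It passed the test (0.81 ± 0.18, limma adjusted p = 0.027), where the unpaired fit gave 0.81 ± 0.64 (adjusted p = 0.756, and 0.027 to 0.999 over all alternatives). Irf5 passed too (adjusted p = 0.00461), which made 2 members of 33, with 7.52% of all probes called. In Booreana cells limma called 0 of 33 with the pairs, with 3.56% of all probes called, and 9 were under 0.05 unadjusted, against 19.5% of all probes in that fit. Isg15 was higher with AML1-ETO9a in all 4 Booreana pairs, by 2.36, 0.62, 0.43 and 1.56 (1.24 ± 0.36, adjusted p = 0.0981). So were Irf2, Irf9, Oas3, Gbp2, Gbp3 and Cxcl10, while Irf1 and Irf3 were lower in all 4. In the wild-type pairs Isg15 differed by -0.50, 1.19, 1.06 and 1.04. Like Gbp2, Irf2, Irf5, Oas1a, Oas3, Gbp3 and Cxcl10 were higher in all 4 wild-type pairs, Oas1a and Oas3 by as little as 0.001. Ifit2 and Tap2 were lower in all 4 wild-type pairs. The share of all probes with 4 pairs in the same direction was not computed.

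Rsad2 and Ifit3, named here after their values were seen, spread the most within groups. RSAD2, or viperin, makes a nucleotide that ends viral RNA chains, and its probe read 10.27, 8.59, 8.28 and 7.55 in wild-type control, and 9.83, 8.99, 8.67 and 9.24 in wild-type AML1-ETO9a cells. It read 7.75, 9.66, 6.92 and 12.81 in Booreana control, and 9.69, 8.83, 7.92 and 12.83 in Booreana AML1-ETO9a cells. The difference between Booreana control replicates 4 and 3 was 5.89 in log2 (59.4-fold), while the group means differed by at most 1.15 in log2.

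IFIT3 is a scaffold of the complex that traps foreign RNA, and Ifit3 read 8.83, 6.78, 6.65 and 6.25 in wild-type control and 7.79, 6.63, 6.45 and 7.40 in wild-type AML1-ETO9a cells. Booreana arrays read 5.91, 7.51, 5.72 and 11.10 with the control vector and 7.45, 6.62, 6.05 and 10.97 with AML1-ETO9a. Its AML1-ETO9a minus control difference was -0.06 ± 1.12 in wild-type and 0.21 ± 1.12 in Booreana cells.

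Measured as the SD within groups, the spread was 1.80 for Rsad2 and 1.79 for Ifit3, against a median of 0.40 and a 99th percentile of 1.44 over all tested probes. Above that percentile lay 6 of 33 members, Rsad2, Ifit3, Oasl1, Usp18, Isg15 and Oas3, and above the 90th percentile lay 17 of 33. Not every member spread so: Irf3 (0.16), Irgm1 (0.24) and Irf1 (0.33) were below the median of all probes.

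The same arrays were high for most members. Booreana AML1-ETO9a replicate 4 held the highest value of its group for 30 of 33 members (24.4% of all probes), and Booreana control replicate 4 for 27 of 33 (22.9%). For 27 members replicate 4 was the highest in both Booreana groups. In wild-type cells replicate 1 was the highest for 24 of 33 members with the control vector (32.7% of all probes) and for 18 with AML1-ETO9a (34.1%). The lowest value fell on Booreana AML1-ETO9a replicate 3 for 21 members, on Booreana control replicate 3 for 16 and on wild-type control replicate 4 for 19. The shares of all probes lowest on these arrays, or highest on replicate 4 of both Booreana groups, were not computed.

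**Figure D3:**
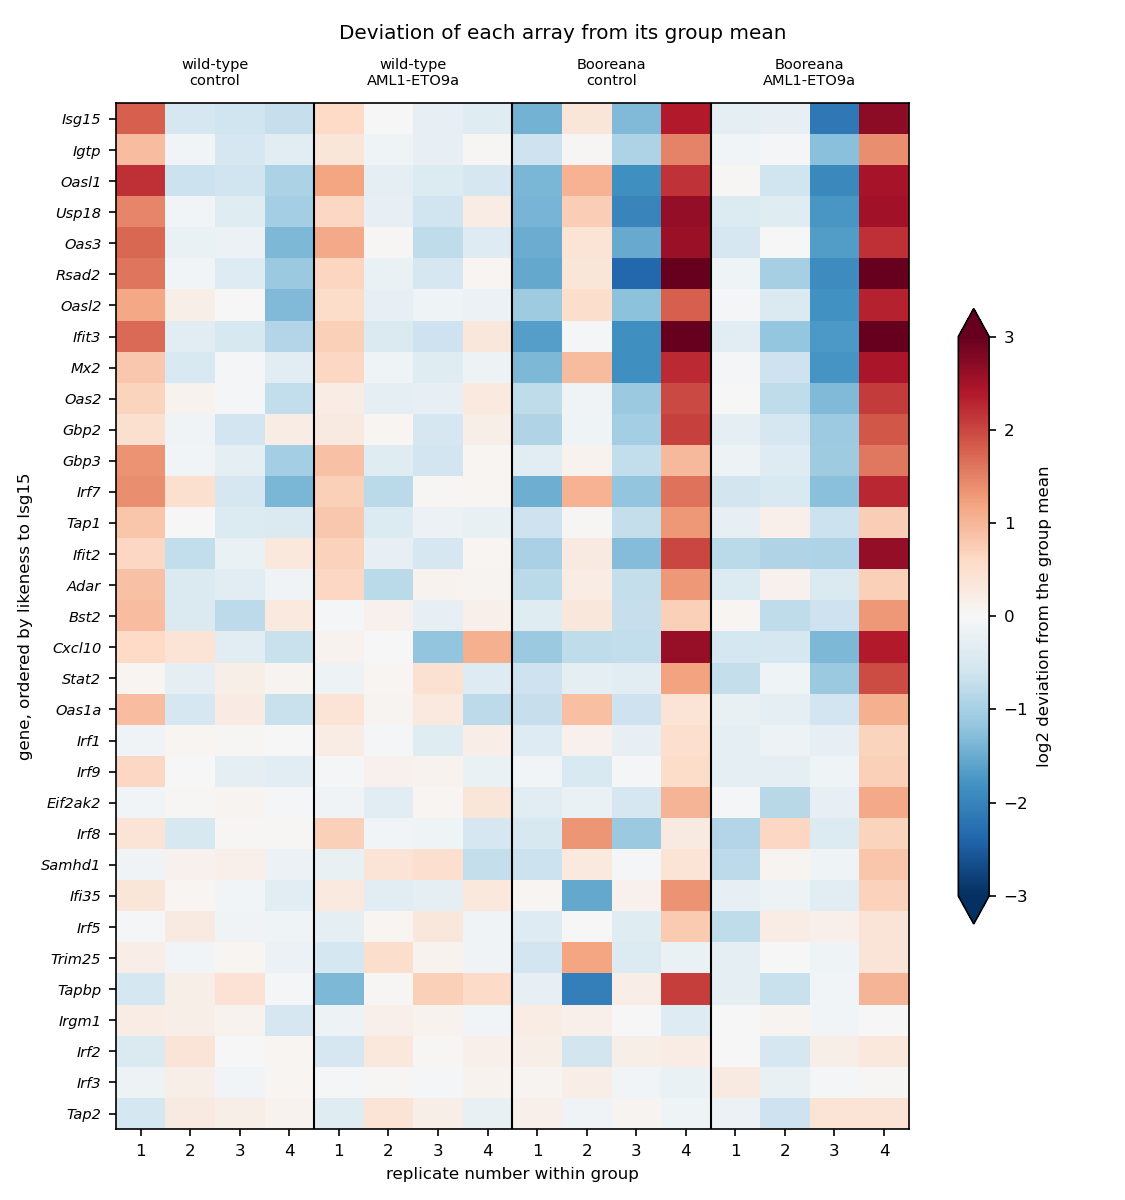
Deviation of each array from its group mean (log2, colour) for the 33 tested genes (rows, ordered by likeness to Isg15) on 16 arrays (columns, by group and replicate number). Replicate 4 of both Booreana groups and replicate 1 of wild-type control are high for most of the upper rows, while at the foot Irf2 and Tap2 are low on replicate 1 of wild-type control and Irf3 and Irgm1 are low on replicate 4 of Booreana control.

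**Figure D4:**
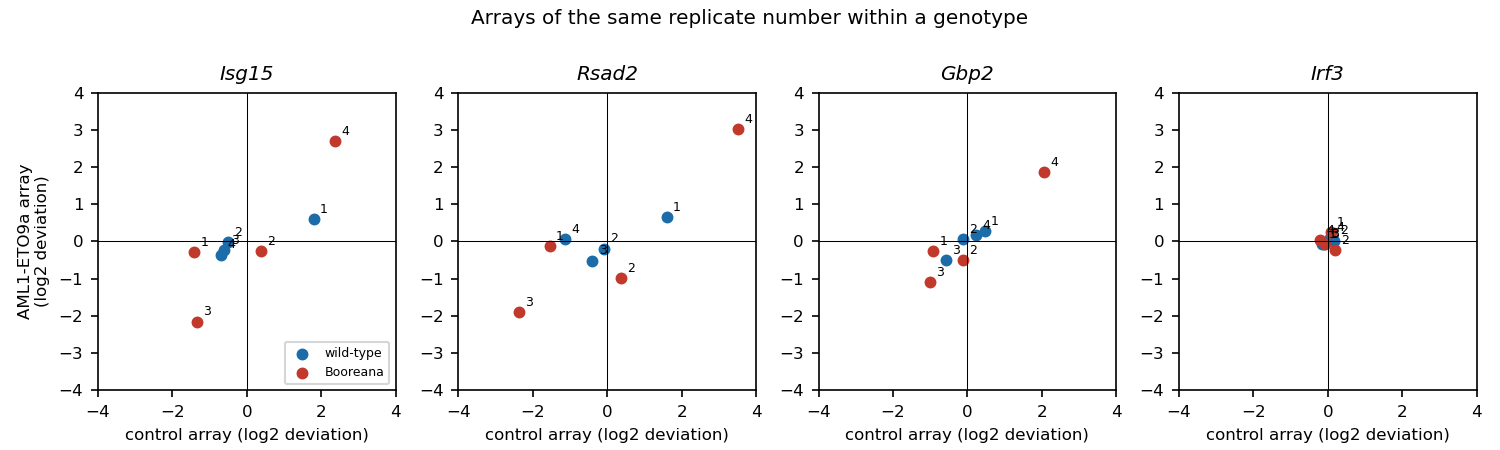
Deviation from the group mean of a control array (x axis) against that of the AML1-ETO9a array with the same replicate number (y axis), in log2 units, for 4 genes; blue is wild-type and red Booreana, with the replicate number beside each point. For Isg15, Rsad2 and Gbp2 Booreana replicate 4 is high and replicate 3 low with both vectors, and for Irf3 all points lie near 0.

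Likeness to Isg15 was measured as the correlation of deviations from the group mean over the 16 arrays, given as a description, since the arrays of a pair are not independent. It exceeded 0.8 for 19 of the 32 other members (59.4%), against 0.815% of the other 12759 tested probes, and exceeded 0.9 for 13 members. The median was 0.84 for the members and -0.01 for all probes. The closest was Igtp, an immunity-related GTPase (0.98), followed by Oasl1 (0.97), Usp18 (0.97), Oas3 (0.96), Rsad2 (0.96), Oasl2 (0.96), Ifit3 (0.95) and Mx2 (0.95).

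Both Booreana replicate 4 arrays carried much of this. Without them, on 14 arrays, the correlation exceeded 0.8 for 11 of 32 members (34.4%), against 2.06% of all probes, and the median fell to 0.67. Oasl1 (0.96), Igtp (0.96), Oas3 (0.93), Usp18 (0.91) and Rsad2 (0.90) remained above 0.9, whereas Stat2 went from 0.82 to 0.37 and Cxcl10 from 0.83 to 0.44.

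By role, the RNA sensors Oas2 (0.93), Adar, the RNA editing enzyme (0.85), and Oas1a (0.80) were close to Isg15, and Eif2ak2, the kinase PKR that stops translation, was at 0.70. Samhd1, which depletes nucleotides (0.50), and Trim25, a ligase that activates RIG-I (0.33), were less so. Of the antiviral effectors, Ifit2 (0.89) and Bst2, which tethers virions to the cell (0.84), followed Isg15, and Ifi35 (0.50) did so less. On the 14 arrays Ifit2, Bst2 and Ifi35 were at 0.66, 0.68 and -0.15. Gbp3 was at 0.91 and the chemokine Cxcl10 at 0.83. In peptide loading, Tap1 was at 0.90 whereas its partner in the peptide transporter, Tap2, was at -0.26 and tapasin (Tapbp) at 0.26.

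Of the 39 genes 33 had a promoter entry, and 16 of the 33 (48.5%) held the GAAA pattern shown for Isg15, Rsad2, Ifit3 and Gbp2, against 3.99% of 27025 genes with an entry. Among tested members it was found in 11 of 17 with a likeness to Isg15 over 0.8 (Isg15 included) and in 3 of the other 12. A pattern like a gamma-activated site, TTCNNNGAA, which reads the same on both strands, was found in 11 of 33 members (33.3%) and in 9.55% of all genes; in Bst2 it overlapped a match of the first. A match is a description of the letters, not evidence of binding, and its absence from this window says only that.

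Irgm1 depended on the probe. The bright one, at 13.05 to 13.90 on all arrays, gave -0.13, and another probe named for the same gene, with group means of 8.92, 9.19, 9.58 and 10.05, gave 0.96. For Irf1 the bright probe gave 0.76 and another 0.91, while a dimmer pair gave -0.05 and 0.13. For Adar the brightest probe gave 0.85 and the other tested probes 0.60 and 0.29. Which transcripts these probes read was not tested.

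Of the members too dim to test, Mx1 was high on the same 2 Booreana arrays. MX1 traps influenza ribonucleoproteins, and most inbred laboratory strains carry a defective allele. Its probe was detected on 2 arrays, Booreana control replicate 4 (7.64) and Booreana AML1-ETO9a replicate 4 (7.90), and read 4.73 to 5.60 on the other 14. Ifih1 (MDA5, a sensor of long RNA), Ifit1 and Xaf1 were detected on 0 of 16 arrays and Iigp1 on 1, a wild-type AML1-ETO9a array. At these intensities a change in them was not detectable.

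**Figure D5:**
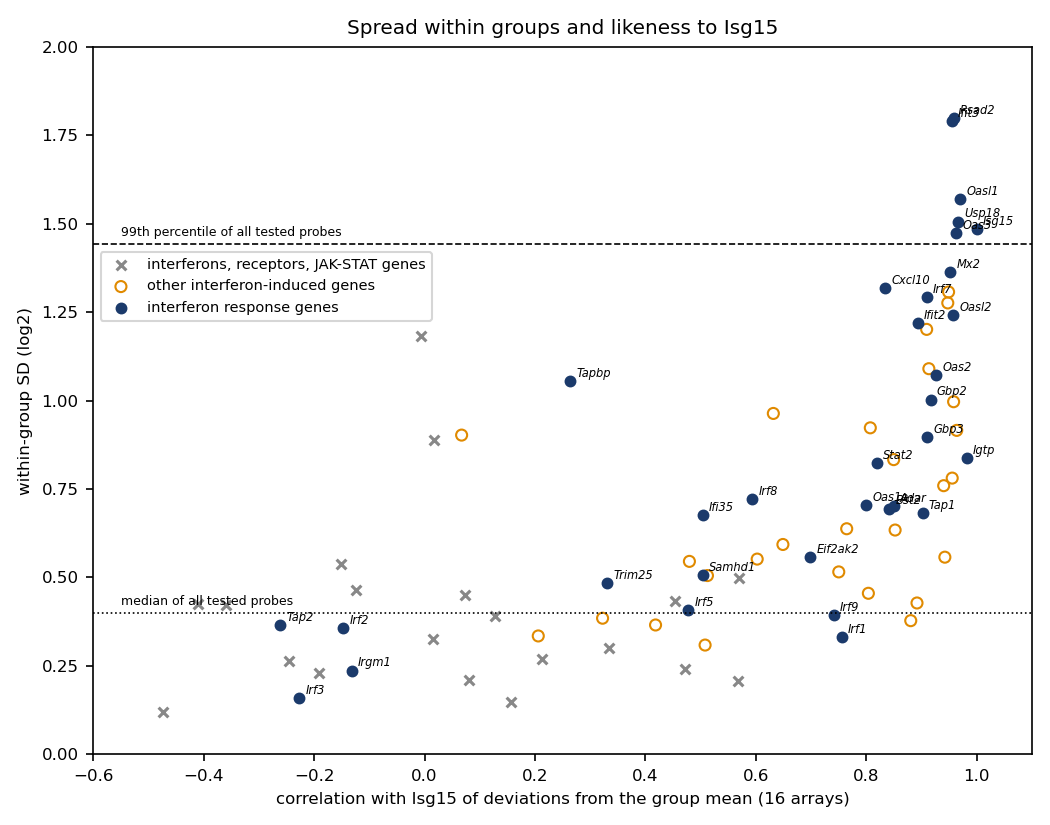
Within-group SD (log2) against the correlation with Isg15 over 16 arrays, for the 33 tested interferon response genes (filled, named), 27 other interferon-induced genes (open) and 20 interferon, receptor and JAK-STAT genes (crosses); lines mark the median (0.40) and 99th percentile (1.44) of SD over all tested probes. All 6 interferon response genes with an SD above the 99th percentile lie at the right edge, and Irf3, Irf2, Irgm1 and Tap2 lie low and to the left of 0.

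The probes most like Isg15 over the whole array were mostly of interferon-induced genes. Of the 50 with the highest correlation (0.88 or more), 19 read members, 11 read genes of a separate list of interferon-induced genes, 5 read genes of the other pathway lists, 13 read named genes on no list and 2 had no name. The highest non-members were Oas1g (0.97), Trim30a (0.96), Lgals3bp (0.96), Irgm2 (0.96) and Isg20 (0.95). In the separate list of interferon-induced genes 15 of 27 tested exceeded 0.8. Limma called 0 of those 27 in each of the 5 comparisons, and 0 to 6 were under 0.05 unadjusted.

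Few genes of the upstream lists had a correlation with Isg15 over 0.8, although the members Irf7 (0.91) and Stat2 (0.82) did. Of 15 interferon and receptor genes 6 were tested, with correlations with Isg15 from 0.02 to 0.45, and limma called 0 of them in each comparison (0 to 3 under 0.05 unadjusted). The probes of Ifnb1, Ifna2, Ifna4, Ifna5, Ifnk and Ifnar1 were detected on 0 of 16 arrays, which is a limit of detection and not a measure of absence. Ifna1, detected on 10 arrays, was at 0.13 with Isg15 and Ifne at 0.07. Of 14 JAK-STAT genes tested 0 exceeded 0.8.

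Socs3, an inhibitor of cytokine signalling, rose in wild-type cells with AML1-ETO9a, the 1 of 14 JAK-STAT genes that passed there (4.32% of all probes). It read 10.02, 10.41, 10.24 and 10.34 in control and 11.25, 11.22, 11.25 and 11.49 with AML1-ETO9a (1.05 ± 0.18, limma adjusted p = 0.00193), without overlap. In Booreana cells it was at 0.54 (limma adjusted p = 0.17, and 0.0308 to 0.426 over all alternatives). There 0 of the 14 passed the threshold, with 1.65% of all probes called. With AML1-ETO9a, Socs3 was at -0.62 in Booreana against wild-type cells (limma adjusted p = 0.0688). That difference passed in 9 of 34 alternatives (0.0132 to 0.311). The difference between the 2 responses was -0.51 (limma adjusted p = 0.778).

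Among 15 nucleic acid sensing genes tested, 2 exceeded 0.8 in likeness to Isg15, Dhx58 (0.95), a helicase of the RIG-I family, and Trex1 (0.95), a DNA exonuclease. Of the 15, 2 others rose in wild-type cells with AML1-ETO9a, where 2.47% of all probes were called higher. Tlr7, the endosomal receptor for single-stranded RNA, went from 7.15 to 8.20 on control arrays to between 8.81 and 9.48 (1.38 ± 0.28, limma adjusted p = 0.0073). Its difference was 0.70 in the authors' values (adjusted p = 0.0049), and its call ended without replicate 3 of both wild-type vectors (0.0730), within a range of 0.000404 to 0.0730. Mavs, the mitochondrial adaptor of RIG-I and MDA5, read 7.59, 7.23, 8.33 and 7.80 against 8.79, 8.72, 8.50 and 8.47 (0.88 ± 0.20, adjusted p = 0.0176). The Mavs call ended without AML1-ETO9a replicate 1 (0.0564) or 2 (0.0525) or control replicate 1 (0.0568) or 2 (0.0649), and without normalization between arrays (0.130), with a range of 0.00372 to 0.152 over all alternatives.

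In Booreana cells, where 1.65% of all probes were called, Tlr7 was the 1 sensing gene that rose. It went from 6.97 to 7.64 on control arrays to between 8.23 and 9.29 with AML1-ETO9a (1.30 ± 0.28, limma adjusted p = 0.0225). That call ended without AML1-ETO9a replicate 2 (0.0613) or 4 (0.0709) or control replicate 1 (0.0700) or 3 (0.0753), within a range of 0.00153 to 0.103. Between the control groups Mavs was 0.96 ± 0.20 higher in Booreana cells (adjusted p = 0.00694, and 0.0931 without normalization between arrays). Ikbke, a kinase of IRF3 and IRF7, was lower there by a log2 difference of -1.89 ± 0.28 (adjusted p = 0.000488) and with AML1-ETO9a by -1.15 ± 0.28 (adjusted p = 0.032). Its second call ended without any one of 6 arrays, replicates 1 to 3 of Booreana and 2 to 4 of wild-type AML1-ETO9a cells (adjusted p up to 0.113, and 0.00276 to 0.143 over all alternatives), and without normalization between arrays (0.0711). Of 12 MHC class I and immunoproteasome genes limma called 0 in each comparison (0 to 4 under 0.05 unadjusted), and 4 exceeded 0.8 in likeness to Isg15.

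Some marker lists of other cells varied with Isg15 within groups, in either direction, and others did so less. Their correlations were taken over all 16 arrays, Booreana replicate 4 included. Of 13 dendritic cell markers 8 were tested, and 7 of them were higher in Booreana than in wild-type control cells. These were mostly MHC class II genes and their activator Ciita, which interferon gamma also induces. With AML1-ETO9a 5 were higher. Of all tested probes 50.4% were above 0 between the control groups, and limma called 3.77% higher. With AML1-ETO9a 46.5% were above 0 and 296 of 12760 were called higher. With the control vector the summed intensity of the 8 markers was 9125 to 11239 in wild-type and 24021 to 46393 in Booreana cells. With AML1-ETO9a it was 12801 to 16283 and 20271 to 44634. Within groups its log2 value followed Isg15 with a correlation of 0.77. Siglech, which marks plasmacytoid dendritic cells, was detected on 2 of 16 arrays, and Itgax, Ly6d and Cd209a on 0.

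For neutrophil granule genes the correlation of the sum with Isg15 was -0.78; the sum was 456357 to 473381 in wild-type control and 124537 to 262758 in Booreana control cells, and 203160 to 304897 and 141330 to 253198 with AML1-ETO9a. The T and NK cell list gave 0.66 on 2 of 10 genes (Nkg7 and Klrd1), with Cd3e, Klrb1c, Gzmb and Ncr1 detected on 0 arrays; its sums ran from 2148 to 4086 in wild-type and 843 to 2552 in Booreana control cells, and from 403 to 1004 and 308 to 357 with AML1-ETO9a. Early progenitor (0.43), monocyte (0.26) and B cell (0.20) sums followed Isg15 less, and the number of detected probes was at -0.13. The part of these cells in the variation of the interferon response genes was not tested.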

How the data were processed

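Per the file headers, the deposited table gives for each of 25697 probes and 16 arrays the signal intensity before normalization with its detection p-value. The authors' processed log2 values, deposited as a second table with the same distribution on every array, served as an alternative; lumi is named in the submitters' processing notes, without its version. Intensities were corrected with limma's normexp method (offset 16, negative probes inferred from the detection p-values), then quantile normalized and log2 transformed (limma 3.58.1, statmod 1.5.0, R 4.3.3). Probes detected (detection p under 0.05) on 4 or more arrays, 12760 in all, entered one limma model with 4 group means and 5 comparisons. Adjusted p-values are Benjamini-Hochberg over all 12760, called under 0.05; the code was tested on simulated data. The number of arrays limits the precision. The platform annotation gave 1 symbol for 23978 probes.

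The 39 genes, the pathway lists and the marker lists were chosen with earlier results of these data known. Array values are given for called members and the 5 with the largest range of group means; other lists give counts and up to 4 called genes a comparison. Same-numbered arrays of a genotype deviated together over all probes (correlations 0.17 to 0.71 in wild-type and 0.36 to 0.42 in Booreana cells). Wild-type number 3 was the weakest (0.17), below the 0.28 that 1 of its arrays reached with another number. Same-numbered arrays of different genotypes ran from -0.51 to 0.33, with 0.33 for number 3 of the control arrays. The pairing comes from this check, not from the labels.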

Additional observations from a re-analysis of the deposited data

Results flagged for a closer look

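In 11 of 132 checks (33 genes in 4 groups), or 8.33%, 1 array lay far from the other 3 of its group by Dixon's test at 95%. The nominal rate of the test is about 1 in 20, and the share of all probes it flags was not computed. Because the genes vary together, the flagged checks are not 11 separate events. Booreana AML1-ETO9a replicate 4 was high for Irf1 (12.34, next 11.53), Irf9 (10.99, next 10.15), Ifit2 (10.1, next 6.67) and Ifi35 (10.48, next 9.63). Booreana control replicate 4 was high for Cxcl10 (8.816, next 5.46).

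Wild-type control replicate 1 was high for Oasl1 (8.192, next 5.42) and Isg15 (9.799, next 7.49), and wild-type AML1-ETO9a replicate 1 for Oasl1 (8.089, next 6.64) and Oasl2 (10.6, next 9.92). On the low side were Irf2 on Booreana control replicate 2 (11.68, next 12.41), the array that stood apart over all probes, and Irgm1 on wild-type control replicate 4 (13.05, next 13.67).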

How the results depend on the processing

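Over 36 settings, the count of called members was within 1.5 times the reported one in 164 of 178 cases. Most of these cases belong to comparisons with a reported count of 0. Where it was 1, the count moved in 7 of 36 settings in wild-type cells and in 6 of 35 between the control groups. The authors' values gave 1 call in Booreana cells, Irf3 lower. A replicate block within genotype, chosen after seeing the data, gave 2 in wild-type cells (Irf5 and Gbp2); a block with 1 level per number over both genotypes gave 1 there and 0 in Booreana cells, and neither block changed another count of calls of the members. Leaving out 1 array gave 0 to 1 calls in wild-type cells and 0 to 1 between the control groups. Leaving out both wild-type arrays of a number (added later) ended the Irf5 call in wild-type cells for each of the 4 numbers (0, with fewer arrays) and between the control groups for numbers 1, 3 and 4 (0). The slide as a block was not run because the headers name no slides. No call reversed. Oasl1 in wild-type control and Cxcl10 in Booreana control cells were detected on 1 of 4 arrays, so their differences rest partly on background.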
